A study of Mus musculus with 12 samples.

Results

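Imprinted genes outside the Dlk1-Dio3 region are described here across mouse pluripotent cell lines and epiblast tissue. The set holds 46 named genes, of which 41 were measured among 22180 genes on the arrays: 17 are classed as maternally expressed, 20 as paternally expressed, and for 4 (Gnas, Blcap, Ddc and Casd1) the expressed copy depends on the transcript or tissue or is not settled. Imprinting of some classed genes, such as Ube3a and Grb10, also varies with tissue. A class names the copy used where the gene is imprinted, and need not hold in the cells measured here. Each gene was read from the probe set annotated with its symbol alone, or from the one with the highest mean over the 12 arrays where there were several. H19, Snrpn, Slc22a3, Zrsr1 and Commd1 had no such probe set and have no value here. The measured genes lie in clusters, with 19 on chromosome 7, 10 on chromosome 6, 4 on chromosome 2 and the other 8 on 6 further chromosomes.

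Expression was measured on 12 arrays, 2 for each of 6 groups. Lines titled rsEpiSC, and called IS-EPIs in another label, came from epiblasts of embryonic day (E) 6.5 and of E5.75. Their medium held the Wnt pathway inhibitor IWR1 (2.5 µM) and a second agent, unnamed in the labels, at 20 ng/ml. EpiSC, epiblast stem cells, came from E5.75, and their medium held FGF2 (12 ng/ml), Activin A (20 ng/ml) and 20% serum replacement (KSR). ESC, embryonic stem cells, came from E3.5, and theirs held the GSK3 inhibitor CHIR99021 (3 µM), the MEK inhibitor PD0325901 (1 µM) and LIF (10 µg/ml). The base was N2B27 throughout, and each line was cultured on mouse embryonic fibroblasts. Epiblast tissue, without culture, was taken at E6.5 and at E5.75. The strain label is OCT4-deltaPE-GFP x C57BL/6 for ESC and EpiSC. The last number of the strain entry, and of the passage entry in rsEpiSC, increases by 1 with each array of the other groups, so these entries were set aside. The labels do not say whether replicates were separate cultures, lines or embryos, so each p-value reflects the spread among these arrays alone, and part of that spread may be technical.

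Imprinted genes are transcribed mainly from the maternal or mainly from the paternal copy, because DNA methylation or histone methylation laid down in the egg or sperm marks the copies differently. The marks sit at control regions that often govern a whole cluster, and they survive the genome-wide loss of DNA methylation in the early embryo with the help of ZFP57, TRIM28 and DNMT1. Many paternally expressed genes favour growth of the fetus and placenta and many maternally expressed ones restrain it. Imprinted marks can be lost or gained in cultured pluripotent cells. The arrays measured RNA of both copies together, so the values below are total signal per gene and say nothing about which copy was used.

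The signal is on a log2 scale, with a median over all genes of 4.63, so a difference of 1 is 2-fold. Single-gene differences are group means ± the standard error (SE) of a limma fit over the 6 groups, with p-values adjusted over all 22180 genes. Rises and falls are differences with an adjusted p under 0.05. Klf4, a naive pluripotency gene, had log2 signals of 9.39 and 9.56 in ESC and 4.52 to 5.34 on the other arrays. The epiblast gene Fgf5 was at 8.45 to 9.03 in tissue, at 3.28 and 3.44 in ESC, and at 3.78 to 6.88 in the other lines. Pou5f1, which codes for Oct4, was at 3.86 to 7.11 on all arrays and lowest, below the median of all genes, on rsEpiSC E5.75 replicate 2. Several marker genes of fibroblasts, among which the lines grew, were higher in some lines than in others and are given with the results they moved with. Of 9 pluripotency and epiblast markers, 1 rose and 6 fell in both EpiSC and rsEpiSC E5.75 against ESC. The number of arrays limits the precision.

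Promoter sequences were available for 35 of the 41 measured genes, with 53 windows of 300 bases from RefSeq on GRCm38.p6, each holding 250 bases before and 50 after an annotated start. Kcnq1, Cdkn1c, Klf14, Peg10, Sgce and Impact had none. A window of a paternally expressed gene held a median of 13.5 CpG (24 windows), one of a maternally expressed gene 22 (20 windows), and one of all annotated genes 7 (32851 windows). The hexamer TGCCGC, which ZFP57 binds when its CpG is methylated, was found on either strand in 29.2% of paternal, 25.0% of maternal and 11.6% of all windows. It holds a CpG itself, so CpG-rich windows have more chances to carry it. Shown are the 250 bases before a start of 4 genes that passed in several of the comparisons below, with each CpG in capitals, so that their CpG content can be compared. Slc38a4 has 3 CpG in this stretch at the first of its 3 listed starts (chr15:97055957-97056206, minus strand) and 5 at each of the others. Grb10 has 40 at the first of 2 starts (chr11:12037421-12037670, minus strand). Mest has 14, with 2 copies of the hexamer, at the second of 3 starts (chr6:30737800-30738049, plus strand), and Peg3 has 8 (chr7:6730420-6730669, minus strand).
Slc38a4: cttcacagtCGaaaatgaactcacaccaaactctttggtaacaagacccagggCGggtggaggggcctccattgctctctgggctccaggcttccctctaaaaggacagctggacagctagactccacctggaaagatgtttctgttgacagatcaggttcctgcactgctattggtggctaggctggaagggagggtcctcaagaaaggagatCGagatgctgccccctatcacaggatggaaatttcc
Grb10: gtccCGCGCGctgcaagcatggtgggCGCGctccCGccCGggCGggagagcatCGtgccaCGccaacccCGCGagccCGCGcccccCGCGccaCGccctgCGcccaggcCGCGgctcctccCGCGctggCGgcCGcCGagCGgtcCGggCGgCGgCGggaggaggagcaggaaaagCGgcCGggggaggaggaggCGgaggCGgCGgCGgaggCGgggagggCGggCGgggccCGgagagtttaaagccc
Mest: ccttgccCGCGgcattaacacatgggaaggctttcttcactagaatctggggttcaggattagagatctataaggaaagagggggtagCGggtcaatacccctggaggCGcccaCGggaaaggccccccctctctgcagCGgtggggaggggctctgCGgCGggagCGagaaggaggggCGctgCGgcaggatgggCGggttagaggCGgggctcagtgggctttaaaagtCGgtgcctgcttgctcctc
Peg3: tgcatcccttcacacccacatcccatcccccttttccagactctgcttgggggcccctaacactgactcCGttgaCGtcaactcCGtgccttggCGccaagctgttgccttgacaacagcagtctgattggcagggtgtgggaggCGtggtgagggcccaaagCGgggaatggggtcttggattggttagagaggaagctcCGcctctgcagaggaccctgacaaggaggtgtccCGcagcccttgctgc
The windows of Peg3 and Usp29, which are transcribed in opposite directions, overlap by 263 of 300 bases.

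Most of the imprinted genes differed among the 6 groups. In limma's F test 26 of 41 passed (63.4%), where 32% of all genes did, namely 15 of 20 paternally expressed, 10 of 17 maternally expressed and 1 of the other 4. With a filter on low signal, 26 of 35 imprinted genes passed and 6096 of all 13331 genes kept. The share of all genes was thus higher than without the filter. Over 9 comparisons between groups there were 69 calls among 369 tests of imprinted genes (18.7%), in 25 genes. Over all genes 11.1% of the 199620 tests were called (5.82% higher and 5.3% lower). Maternally expressed genes gave 27 of these calls, 24 higher and 3 lower in the group named first, and paternally expressed genes gave 38, 25 higher and 13 lower. The difference between the classes was not tested, and calls of comparisons that share arrays are not independent. A direction also depends on which group is named first. Plagl1, highest in ESC, counts as lower in rsEpiSC E5.75 against ESC and as higher in ESC against epiblast E5.75. Most of the 13 lower calls of paternally expressed genes were those of Slc38a4 and Nnat, and the probe sets of Nnat disagreed on tissue. The median log2 signal of the maternally expressed genes was 6.01 to 6.31 on the 6 arrays of rsEpiSC and EpiSC and 5.17 to 5.55 on the 6 arrays of ESC and tissue. That of the paternally expressed genes ran from 5.04 to 6.10 without such a split. A median over 17 genes is the value of 1 gene on each array, so this split is not a shift of the whole class. Gene by gene, the median difference of the 17 was 0.22 in EpiSC and 0.44 in rsEpiSC E5.75 against ESC. Against tissue it was 0.31 in rsEpiSC E6.5, 0.63 in rsEpiSC E5.75 and 0.20 in EpiSC. In these comparisons 10 to 12 of the 17 differences were above 0.

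**Figure D1:**
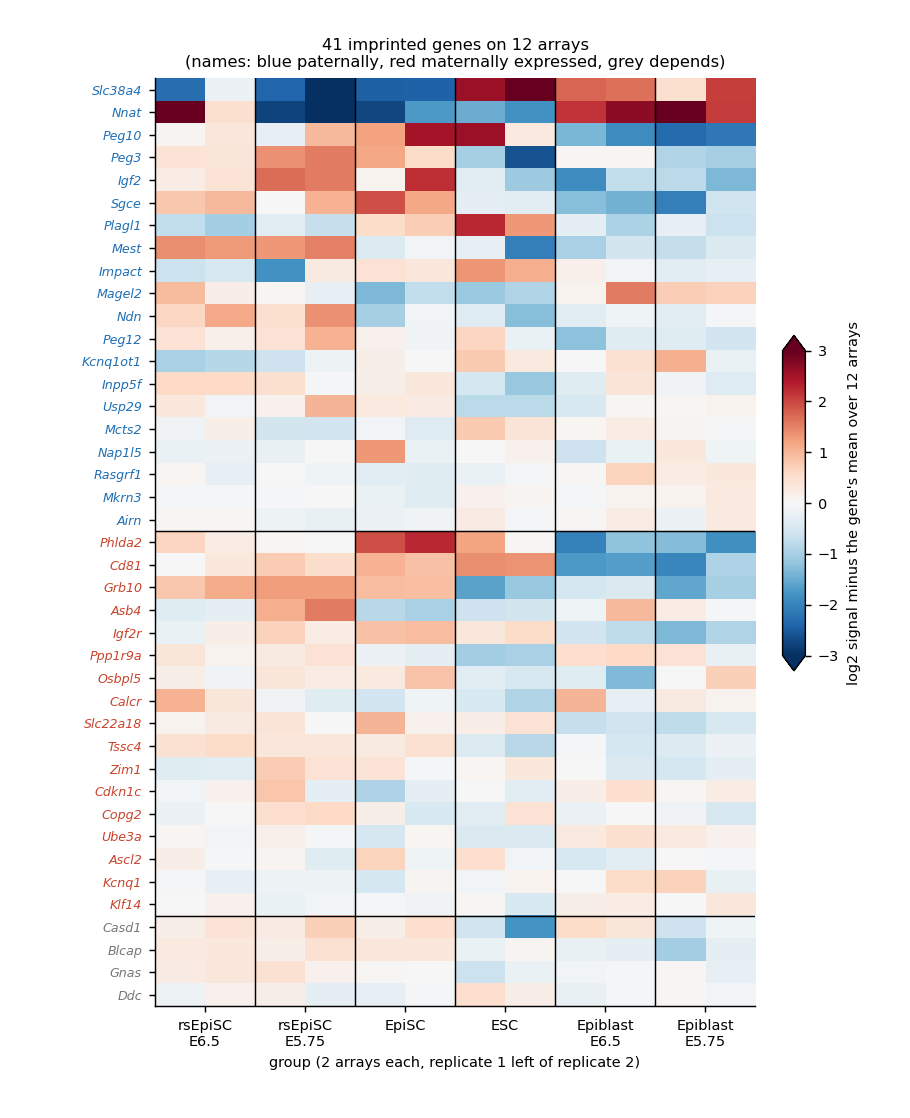
Log2 signal of the 41 imprinted genes (rows, grouped by class) on 12 arrays (columns, 2 per group), shown as the difference from each gene's mean over the arrays. Slc38a4 stands high on the ESC and tissue arrays and low in EpiSC and rsEpiSC E5.75, and Grb10 stands high on the 6 arrays of rsEpiSC and EpiSC.

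Between cell lines, most calls came in rsEpiSC E5.75 against ESC. In that comparison 14 of 41 passed, 10 higher and 4 lower, where 10.3% of all genes passed (5.49% higher and 4.8% lower). All 4 maternally expressed genes among them rose, and paternally expressed genes rose in 5 cases and fell in 4. In EpiSC against ESC 6 of 41 passed, 5 higher and 1 lower, where 6.29% of all genes did (3.6% higher and 2.7% lower). The median difference of the 41 genes was 0.40 in rsEpiSC E5.75 against ESC and 0.22 in EpiSC against ESC, where the medians of all genes were 0.017 and 0.005. Both comparisons use the same ESC arrays. In rsEpiSC E5.75 against EpiSC, lines derived at the same stage and kept in different media, 2 of 41 passed, where 3.87% of all genes did (1.56% higher and 2.31% lower), so the share of imprinted genes (4.88%) was close to the background. Calls that held without each of the 4 arrays compared in turn were 6 of 14 in rsEpiSC E5.75 against ESC (Asb4, Grb10, Mest, Peg3, Plagl1 and Slc38a4), 3 of 6 in EpiSC against ESC (Grb10, Peg3 and Slc38a4) and 1 of 2 in rsEpiSC E5.75 against EpiSC (Asb4).

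Against tissue, more imprinted genes rose than fell in each line. In rsEpiSC E6.5 against epiblast E6.5, 5 rose and 1 fell, with 12.5% of all genes called (6.72% higher and 5.78% lower). In rsEpiSC E5.75 against epiblast E5.75, 13 rose and 2 fell, with 21.5% of all genes called (11.5% higher and 10% lower). In EpiSC against the same tissue 11 rose and 4 fell, with 24% called (12.6% higher and 11.4% lower), and in ESC against it 7 rose and 3 fell, with 21.5% called (10.8% higher and 10.6% lower). The shares of imprinted genes called were thus near the background in rsEpiSC E6.5 (14.6%) and ESC (24.4%), and stood at 36.6% in both rsEpiSC E5.75 and EpiSC. The last 3 comparisons share the epiblast E5.75 arrays. Calls that held without each array compared were 1 of 6 in rsEpiSC E6.5 (Cd81), 6 of 15 in rsEpiSC E5.75 (Cd81, Grb10, Igf2r, Nnat, Peg3 and Slc38a4), 8 of 15 in EpiSC (Cd81, Grb10, Igf2r, Nnat, Peg10, Phlda2, Sgce and Slc38a4) and 6 of 10 in ESC (Cd81, Igf2r, Nnat, Peg10, Phlda2 and Plagl1).

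**Figure D2:**
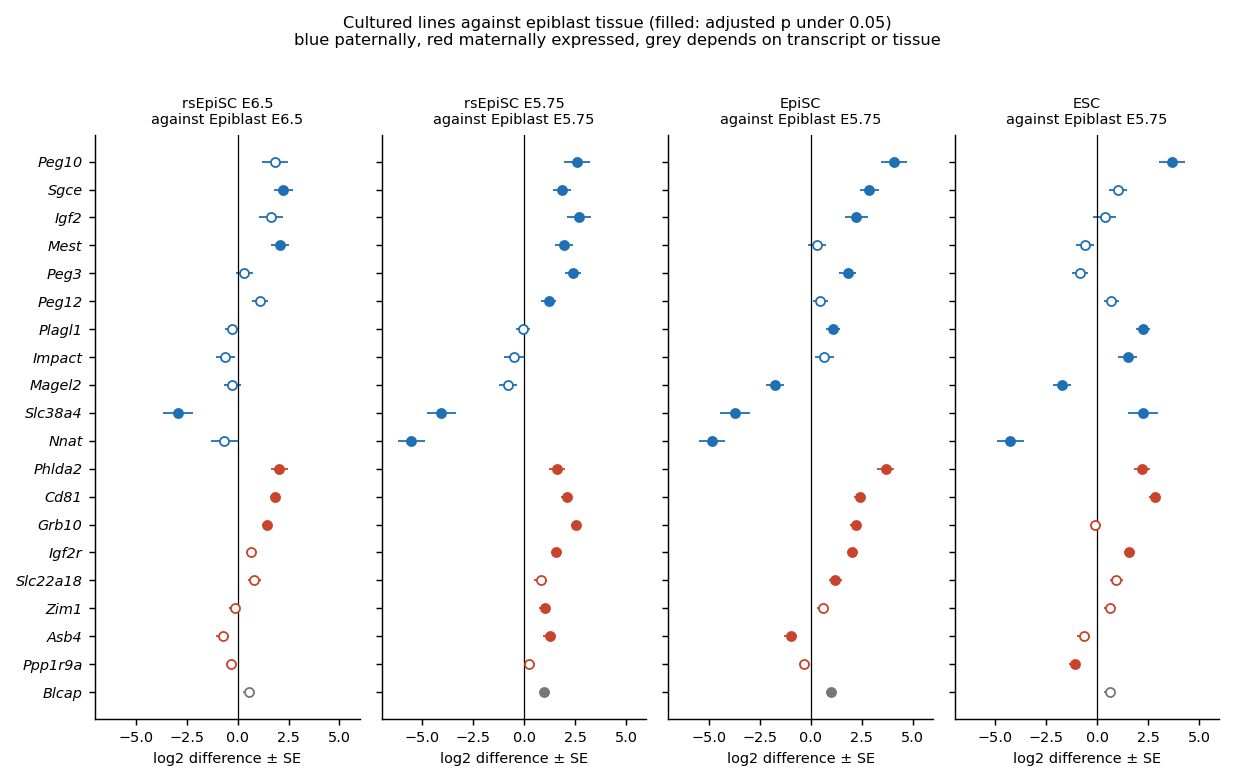
Log2 difference ± SE of 20 imprinted genes in each line against epiblast tissue (panels from left: rsEpiSC E6.5, rsEpiSC E5.75, EpiSC and ESC), for the genes that passed in at least 1 of the 4 comparisons. Filled points passed an adjusted p of 0.05; Phlda2 and Cd81 lie to the right of 0 and are filled in every panel, and Slc38a4 lies to the left in all panels but that of ESC.

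Slc38a4, which codes for an amino acid transporter of the cell membrane, had the widest range of all measured imprinted genes. Its log2 signals were 3.84 and 5.95 in rsEpiSC E6.5, 3.76 and 2.91 in rsEpiSC E5.75, 3.67 and 3.70 in EpiSC, 8.72 and 10.59 in ESC, 7.88 and 7.79 in epiblast E6.5, and 6.61 and 8.20 in epiblast E5.75. The ESC arrays were the highest, tissue came next, and all arrays of EpiSC and rsEpiSC were below every ESC and tissue array. It fell in EpiSC against ESC (-5.97 ± 0.72, adjusted p = 0.000332) and in rsEpiSC E5.75 against ESC (-6.32 ± 0.72, adjusted p = 0.00014). All 4 arrays of EpiSC and rsEpiSC E5.75 were below the median signal of all genes (4.63) and background was not measured, so the size of these falls may be understated. Against tissue it fell in rsEpiSC E6.5 (-2.94 ± 0.72, adjusted p = 0.0221), rsEpiSC E5.75 (-4.07 ± 0.72, adjusted p = 0.00286) and EpiSC (-3.72 ± 0.72, adjusted p = 0.00389), and rose in ESC (2.25 ± 0.72, adjusted p = 0.0444). The first of these was lost without rsEpiSC E6.5 replicate 1 or either epiblast E6.5 array (adjusted p = 0.0837 to 0.196), and the difference was -1.88 (adjusted p = 0.196) in the first case. The rise in ESC was lost without ESC replicate 2 or epiblast E5.75 replicate 1 (adjusted p = 0.27 to 0.278), with differences of 1.32 and 1.45.

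Plagl1, a paternally expressed zinc finger transcription factor that holds back proliferation, was also highest in ESC. It had log2 signals of 3.77 and 3.49 in rsEpiSC E6.5, 4.17 and 3.81 in rsEpiSC E5.75, 5.05 and 5.22 in EpiSC, 6.77 and 5.80 in ESC, 4.23 and 3.55 in epiblast E6.5, and 4.25 and 3.86 in epiblast E5.75. Both ESC arrays were above the EpiSC arrays, which were above all others. Plagl1 fell in rsEpiSC E5.75 against ESC (-2.29 ± 0.34, adjusted p = 0.00103) and rose in ESC (2.23 ± 0.34, adjusted p = 0.00108) and EpiSC (1.08 ± 0.34, adjusted p = 0.04) against epiblast E5.75. The last was lost without either EpiSC array or either epiblast E5.75 array (adjusted p = 0.0642 to 0.157). A second probe set annotated with Plagl1 has 0 of its 20 nearest-numbered probe sets on the strand of Plagl1, against 19 of 20 for the one used, so it may not read Plagl1. In a fit over every probe set it gave -5.39 ± 0.57 for rsEpiSC E5.75 against ESC (adjusted p = 0.00082), where the one used gave -2.29 ± 0.37 (adjusted p = 0.00754). The pair differed elsewhere: in rsEpiSC E6.5 against epiblast E6.5 the second gave -2.32 ± 0.57 (adjusted p = 0.0411) and the one used -0.26 ± 0.37 (adjusted p = 0.699).

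Impact, whose product restrains the kinase GCN2 of the amino acid response, had log2 signals of 7.58 and 7.74 in rsEpiSC E6.5, 6.40 and 8.49 in rsEpiSC E5.75, 8.66 and 8.57 in EpiSC, 9.54 and 9.32 in ESC, 8.38 and 8.14 in epiblast E6.5, and 7.90 and 7.99 in epiblast E5.75. The spread between the rsEpiSC E5.75 arrays was wider than the range of its group means. It fell in rsEpiSC E5.75 against ESC (-1.99 ± 0.48, adjusted p = 0.0192) and rose in ESC against epiblast E5.75 (1.49 ± 0.48, adjusted p = 0.0441). The fall was -0.95 (adjusted p = 0.103) without rsEpiSC E5.75 replicate 1, and it was lost without either ESC array too. The rise was lost without either ESC array or either epiblast E5.75 array (adjusted p = 0.0908 to 0.146). The paternally expressed retrogene Mcts2 fell in the same comparison with ESC (-1.15 ± 0.25, adjusted p = 0.0113), with signals of 6.98 and 6.96 in rsEpiSC E5.75 against 8.33 and 7.92 in ESC. Its sequence is close to that of its parent gene Mcts1, so its signal may be shared. The call was lost without ESC replicate 1 or either rsEpiSC E5.75 array (adjusted p = 0.0662 to 0.0886).

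Peg3 was lowest where Slc38a4 was highest. Peg3, a paternally expressed zinc finger gene of fetal growth and maternal behaviour, had log2 signals of 8.99 and 8.95 in rsEpiSC E6.5, 9.97 and 10.13 in rsEpiSC E5.75, 9.75 and 9.15 in EpiSC, 7.58 and 5.99 in ESC, 8.63 and 8.65 in epiblast E6.5, and 7.69 and 7.59 in epiblast E5.75. Both ESC arrays were below every other array, and both rsEpiSC E5.75 arrays were above every other array. Peg3 rose in EpiSC (2.67 ± 0.40, adjusted p = 0.00157) and in rsEpiSC E5.75 (3.26 ± 0.40, adjusted p = 0.000226) against ESC, and in the same lines against epiblast E5.75 (1.81 ± 0.40, adjusted p = 0.00768 in EpiSC and 2.41 ± 0.40, adjusted p = 0.00195 in rsEpiSC E5.75). The call in EpiSC against tissue was lost without EpiSC replicate 1 (adjusted p = 0.0687). In rsEpiSC E6.5 against epiblast E6.5 Peg3 did not pass (0.34 ± 0.40, adjusted p = 0.624). A probe set annotated with Peg3 and its antisense RNA together gave 5.41 to 7.82 in ESC and 8.59 to 10.31 in all other groups, with tissue at 8.59 to 9.54.

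Usp29, a ubiquitin peptidase gene that shares its start region with Peg3, was low, at 3.05 on both ESC arrays and 3.40 to 4.86 elsewhere. It rose in rsEpiSC E5.75 against ESC (1.37 ± 0.30, adjusted p = 0.012), and the call was lost without ESC replicate 2 or rsEpiSC E5.75 replicate 2 (adjusted p = 0.0562 to 0.148). Zim1, the maternally expressed zinc finger gene of the cluster, was at 4.80 and 4.48 in rsEpiSC E5.75, against 3.748 and 3.501 in epiblast E5.75, and rose there (1.01 ± 0.26, adjusted p = 0.0184). On the other arrays it was at 3.61 to 4.44, and the call was lost without either rsEpiSC E5.75 array or epiblast E5.75 replicate 1 (adjusted p = 0.0535 to 0.135).

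**Figure D3:**
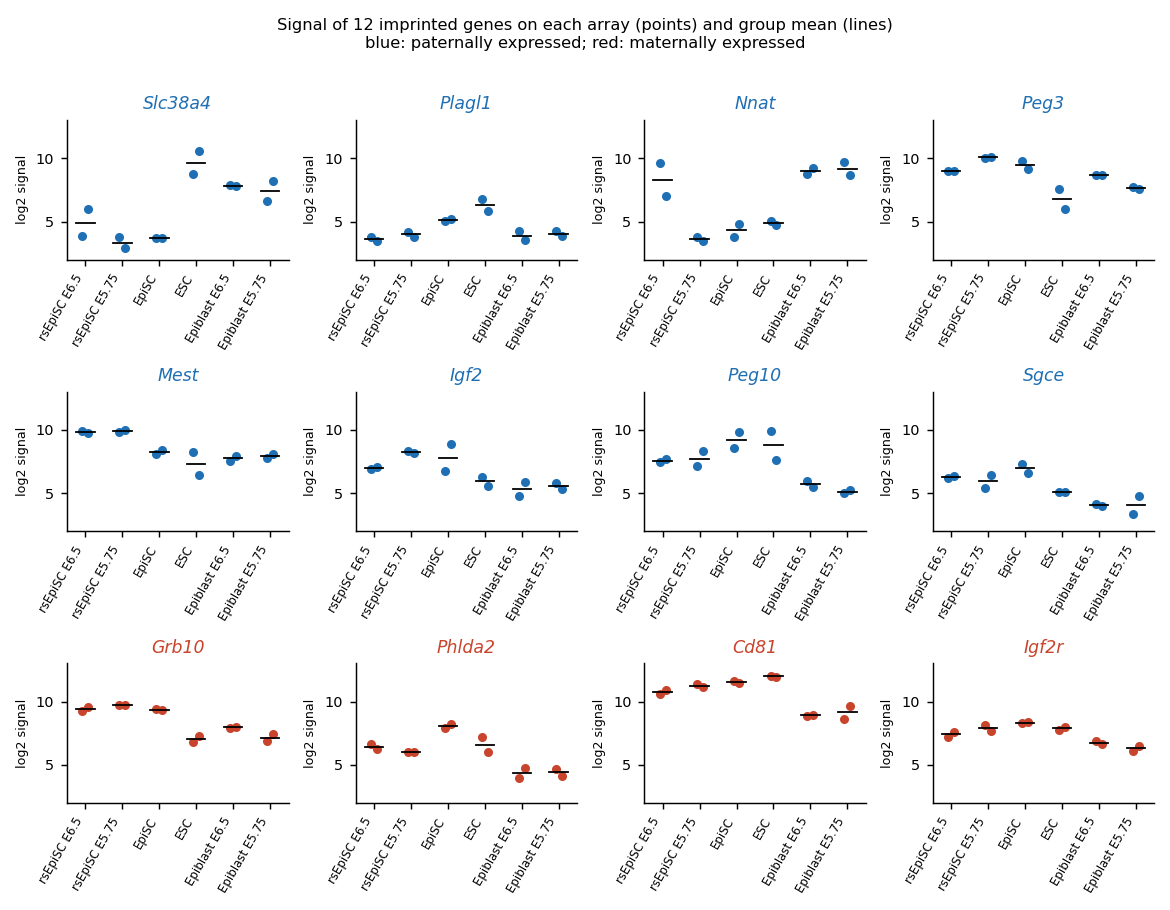
Log2 signal of 12 imprinted genes on each array (points) with the group mean (line), in the order rsEpiSC E6.5, rsEpiSC E5.75, EpiSC, ESC, epiblast E6.5 and epiblast E5.75. The 6 points of rsEpiSC and EpiSC lie above all others for Grb10, and below all ESC and tissue points for Slc38a4.

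Grb10, which codes for an adaptor that dampens insulin and IGF receptor signalling and is maternally expressed outside neurons, separated the groups with little spread. Its log2 signals were 9.25 and 9.56 in rsEpiSC E6.5, 9.70 and 9.69 in rsEpiSC E5.75, 9.37 and 9.35 in EpiSC, 6.83 and 7.30 in ESC, 7.93 and 8.01 in epiblast E6.5, and 6.88 and 7.44 in epiblast E5.75. The lowest array of rsEpiSC and EpiSC (9.25) was above the highest array of ESC and tissue (8.01). It rose in EpiSC (2.29 ± 0.26, adjusted p = 0.000194) and rsEpiSC E5.75 (2.63 ± 0.26, adjusted p = 4.09e-05) against ESC, and against tissue in rsEpiSC E6.5 (1.43 ± 0.26, adjusted p = 0.00478), rsEpiSC E5.75 (2.54 ± 0.26, adjusted p = 0.000104) and EpiSC (2.20 ± 0.26, adjusted p = 0.000177). ESC against epiblast E5.75 did not pass (-0.09 ± 0.26, adjusted p = 0.821). The call of rsEpiSC E6.5 against tissue was lost without rsEpiSC E6.5 replicate 2 (1.27, adjusted p = 0.0747), and the other calls held without each of the arrays compared. Its neighbour Ddc, the DOPA decarboxylase gene, stayed at 3.77 to 4.54 on all arrays and passed in no comparison.

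In the H19-Igf2 cluster, only Igf2 had a value. Igf2, the paternally expressed insulin-like growth factor of the fetus, had log2 signals of 6.88 and 7.07 in rsEpiSC E6.5, 8.33 and 8.21 in rsEpiSC E5.75, 6.76 and 8.86 in EpiSC, 6.30 and 5.56 in ESC, 4.76 and 5.91 in epiblast E6.5, and 5.84 and 5.30 in epiblast E5.75. The rsEpiSC E5.75 arrays and EpiSC replicate 2 were the highest, and EpiSC replicate 1 minus replicate 2 was -2.10. Igf2 rose in rsEpiSC E5.75 against ESC (2.34 ± 0.57, adjusted p = 0.0215) and against epiblast E5.75 (2.70 ± 0.57, adjusted p = 0.00735), and in EpiSC against epiblast E5.75 (2.24 ± 0.57, adjusted p = 0.0158). Without EpiSC replicate 2 the last was 1.19 (adjusted p = 0.129), and it was lost without epiblast E5.75 replicate 2 as well. The call against ESC was lost without ESC replicate 2 or either rsEpiSC E5.75 array (adjusted p = 0.106 to 0.136), and that of rsEpiSC E5.75 against tissue without rsEpiSC E5.75 replicate 1 (adjusted p = 0.0551). In rsEpiSC E6.5 against epiblast E6.5 it did not pass (1.63 ± 0.57, adjusted p = 0.082).

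Igf2r, the maternally expressed receptor that clears IGF2, had log2 signals of 7.23 and 7.63 in rsEpiSC E6.5, 8.12 and 7.67 in rsEpiSC E5.75, 8.30 and 8.37 in EpiSC, 7.77 and 7.99 in ESC, 6.87 and 6.66 in epiblast E6.5, and 6.09 and 6.53 in epiblast E5.75. All arrays of the lines were above all arrays of tissue. It rose against epiblast E5.75 in rsEpiSC E5.75 (1.58 ± 0.27, adjusted p = 0.00241), EpiSC (2.03 ± 0.27, adjusted p = 0.000443) and ESC (1.57 ± 0.27, adjusted p = 0.00221), and did not pass in rsEpiSC E6.5 against epiblast E6.5 (0.67 ± 0.27, adjusted p = 0.13). Airn, the paternal long RNA that silences the paternal copy of Igf2r, was at 3.19 to 3.69 on every array, below the median signal of all genes, and passed nowhere.

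The Kcnq1 cluster holds maternally expressed genes that the paternal long RNA Kcnq1ot1 silences. Phlda2, which limits growth of the placenta, had log2 signals of 6.64 and 6.23 in rsEpiSC E6.5, 6.05 and 6.01 in rsEpiSC E5.75, 7.93 and 8.27 in EpiSC, 7.18 and 6.03 in ESC, 3.96 and 4.80 in epiblast E6.5, and 4.68 and 4.16 in epiblast E5.75. EpiSC were the highest group, and every array of the lines was above every array of tissue. Phlda2 rose against tissue in rsEpiSC E6.5 (2.05 ± 0.40, adjusted p = 0.00784), rsEpiSC E5.75 (1.61 ± 0.40, adjusted p = 0.0156), EpiSC (3.68 ± 0.40, adjusted p = 0.000127) and ESC (2.18 ± 0.40, adjusted p = 0.00295). It fell in rsEpiSC E5.75 against EpiSC (-2.07 ± 0.40, adjusted p = 0.0127), which was lost without either EpiSC array or either rsEpiSC E5.75 array (adjusted p = 0.0535 to 0.102). It rose in EpiSC against ESC (1.49 ± 0.40, adjusted p = 0.0468), which was 0.92 (adjusted p = 0.325) without ESC replicate 2 and was lost without either EpiSC array. Against tissue, the call of rsEpiSC E6.5 was lost without rsEpiSC E6.5 replicate 1 or epiblast E6.5 replicate 1 (adjusted p = 0.064 to 0.0759), and that of rsEpiSC E5.75 without either rsEpiSC E5.75 array or epiblast E5.75 replicate 2 (adjusted p = 0.0661 to 0.0871).

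Cd81, a tetraspanin of the cell surface, was higher in every line than in tissue. Its log2 signals were 10.59 and 10.92 in rsEpiSC E6.5, 11.38 and 11.13 in rsEpiSC E5.75, 11.64 and 11.50 in EpiSC, 12.00 and 11.95 in ESC, 8.90 and 8.95 in epiblast E6.5, and 8.65 and 9.67 in epiblast E5.75. Every array of the lines lay above every array of tissue. It rose against tissue in rsEpiSC E6.5 (1.84 ± 0.26, adjusted p = 0.00169), rsEpiSC E5.75 (2.09 ± 0.26, adjusted p = 0.000419), EpiSC (2.41 ± 0.26, adjusted p = 0.000134) and ESC (2.82 ± 0.26, adjusted p = 4.31e-05), and each of these calls held in all 19 alternatives. Between lines it passed in no comparison.

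Other genes of the Kcnq1 cluster passed in 1 comparison or in none. Tssc4 rose in rsEpiSC E5.75 against ESC (0.95 ± 0.27, adjusted p = 0.0442), and Slc22a18, a gene of the organic cation transporter family, rose in EpiSC against epiblast E5.75 (1.20 ± 0.32, adjusted p = 0.0177). The first was lost without ESC replicate 2 or either rsEpiSC E5.75 array (adjusted p = 0.206 to 0.243) and the second without EpiSC replicate 1 or epiblast E5.75 replicate 1 (adjusted p = 0.0813 to 0.152). Cdkn1c, which codes for the cell cycle inhibitor p57, had log2 signals of 5.08 and 5.31 in rsEpiSC E6.5, 6.00 and 4.90 in rsEpiSC E5.75, 4.25 and 4.90 in EpiSC, 5.16 and 4.84 in ESC, 5.37 and 5.68 in epiblast E6.5, and 5.22 and 5.41 in epiblast E5.75. These pairs overlap widely, and Cdkn1c passed in no comparison. Ascl2, a transcription factor gene of the trophoblast, was at 4.89 and 4.66 in rsEpiSC E6.5, 4.76 and 4.32 in rsEpiSC E5.75, 5.36 and 4.56 in EpiSC, 5.20 and 4.61 in ESC, 4.20 and 4.35 in epiblast E6.5, and 4.68 and 4.66 in epiblast E5.75, and it too passed nowhere. Kcnq1ot1, Kcnq1, a potassium channel gene, and Osbpl5, which codes for a lipid transfer protein, did not pass in any comparison either. Kcnq1ot1 was lowest in rsEpiSC E6.5, at 4.03 and 4.14, against 5.01 and 5.47 in epiblast E6.5 (-1.16 ± 0.38, adjusted p = 0.0649). Kcnq1 and Kcnq1ot1, like Igf2r and Airn, overlap on opposite strands, so their signals may not be independent.

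In the Peg10 cluster on chromosome 6, the neighbours Peg10 and Sgce, which are transcribed in opposite directions from a shared start region, both had higher signals on every array of the lines than on any array of tissue. Peg10, a paternally expressed gene derived from a retrotransposon and needed for the placenta, had log2 signals of 7.45 and 7.71 in rsEpiSC E6.5, 7.12 and 8.34 in rsEpiSC E5.75, 8.57 and 9.86 in EpiSC, 9.92 and 7.66 in ESC, 5.99 and 5.49 in epiblast E6.5, and 5.06 and 5.22 in epiblast E5.75. The ESC replicates were further apart than those of any other group. It rose against epiblast E5.75 in rsEpiSC E5.75 (2.60 ± 0.64, adjusted p = 0.0148), EpiSC (4.08 ± 0.64, adjusted p = 0.00112) and ESC (3.65 ± 0.64, adjusted p = 0.00227), and did not pass in rsEpiSC E6.5 against epiblast E6.5 (1.84 ± 0.64, adjusted p = 0.0788). The call of rsEpiSC E5.75 was lost without rsEpiSC E5.75 replicate 2 or epiblast E5.75 replicate 1 (adjusted p = 0.0684 to 0.131). Sgce, which codes for epsilon-sarcoglycan, had log2 signals of 6.22 and 6.38 in rsEpiSC E6.5, 5.40 and 6.46 in rsEpiSC E5.75, 7.34 and 6.57 in EpiSC, 5.11 and 5.07 in ESC, 4.12 and 3.99 in epiblast E6.5, and 3.35 and 4.80 in epiblast E5.75. It rose against tissue in rsEpiSC E6.5 (2.25 ± 0.46, adjusted p = 0.00966), rsEpiSC E5.75 (1.85 ± 0.46, adjusted p = 0.0153) and EpiSC (2.88 ± 0.46, adjusted p = 0.00126), and in EpiSC against ESC (1.86 ± 0.46, adjusted p = 0.031). The call against ESC held in 9 of 19 alternatives. Against tissue, the call of rsEpiSC E6.5 was lost without either rsEpiSC E6.5 array (adjusted p = 0.0576 to 0.0849), and that of rsEpiSC E5.75 without rsEpiSC E5.75 replicate 2 or epiblast E5.75 replicate 1 (adjusted p = 0.115 to 0.142).

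Asb4, a maternally expressed gene for a ubiquitin ligase adaptor, marked rsEpiSC E5.75. Its log2 signals were 4.03 and 4.12 in rsEpiSC E6.5, 5.47 and 5.94 in rsEpiSC E5.75, 3.55 and 3.40 in EpiSC, 3.76 and 3.83 in ESC, 4.26 and 5.36 in epiblast E6.5, and 4.60 and 4.32 in epiblast E5.75. Both rsEpiSC E5.75 arrays were above all others. It rose in that line against EpiSC (2.23 ± 0.33, adjusted p = 0.00221), ESC (1.91 ± 0.33, adjusted p = 0.00254) and epiblast E5.75 (1.24 ± 0.33, adjusted p = 0.02), and fell in EpiSC against epiblast E5.75 (-0.99 ± 0.33, adjusted p = 0.047). The first 2 calls held in all 19 alternatives, the rise against tissue in 16 and the fall in EpiSC in 6. The rise against tissue was lost without either rsEpiSC E5.75 array or epiblast E5.75 replicate 2 (adjusted p = 0.0508 to 0.147), and the fall without either EpiSC array or either epiblast E5.75 array (adjusted p = 0.0604 to 0.18). In rsEpiSC E6.5 against rsEpiSC E5.75 it did not pass (-1.63 ± 0.33, adjusted p = 0.159). Ppp1r9a, which codes for the actin-binding protein neurabin, was at 5.55 and 5.60 in ESC and at 6.31 to 7.18 on the 10 other arrays. It rose in rsEpiSC E5.75 against ESC (1.36 ± 0.27, adjusted p = 0.00706) and fell in ESC against epiblast E5.75 (-1.11 ± 0.27, adjusted p = 0.0142). The calls were lost without rsEpiSC E5.75 replicate 2 (adjusted p = 0.0768) and without ESC replicate 1 or epiblast E5.75 replicate 1 (adjusted p = 0.0515 to 0.0826). Casd1, a gene for a sialic acid acetyltransferase, rose against ESC in EpiSC (1.54 ± 0.37, adjusted p = 0.0289) and rsEpiSC E5.75 (1.67 ± 0.37, adjusted p = 0.013), where ESC replicate 2 (4.59) was below ESC replicate 1 (5.79). The calls were lost without ESC replicate 2 or either EpiSC array (adjusted p = 0.0827 to 0.203) and without ESC replicate 2 or rsEpiSC E5.75 replicate 2 (adjusted p = 0.099 to 0.133). Calcr, the calcitonin receptor gene, passed in no comparison.

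Mest, a paternally expressed gene for an enzyme of the alpha/beta hydrolase family, was highest in both rsEpiSC groups. Its log2 signals were 9.89 and 9.77 in rsEpiSC E6.5, 9.79 and 10.00 in rsEpiSC E5.75, 8.09 and 8.41 in EpiSC, 8.25 and 6.44 in ESC, 7.53 and 7.96 in epiblast E6.5, and 7.78 and 8.07 in epiblast E5.75. The 4 rsEpiSC arrays were above every other array by more than 1. Mest rose in rsEpiSC E5.75 against ESC (2.55 ± 0.44, adjusted p = 0.00255), in rsEpiSC E6.5 against epiblast E6.5 (2.08 ± 0.44, adjusted p = 0.011) and in rsEpiSC E5.75 against epiblast E5.75 (1.97 ± 0.44, adjusted p = 0.00911). Against EpiSC the difference of rsEpiSC E5.75 did not pass (1.64 ± 0.44, adjusted p = 0.0629). The calls against tissue were lost without either rsEpiSC E6.5 array or epiblast E6.5 replicate 1 (adjusted p = 0.0733 to 0.0801) and without either rsEpiSC E5.75 array or epiblast E5.75 replicate 1 (adjusted p = 0.0512 to 0.0693). Copg2, a coat protein gene that overlaps Mest on the other strand, and the transcription factor gene Klf14 passed in no comparison.

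In the Snrpn cluster, a group of brain genes of the Prader-Willi and Angelman region, the calls went in both directions. Magel2, of the MAGE family, was at 4.01 to 4.63 on the arrays of EpiSC and ESC, against 5.47 to 6.93 in tissue, and at 5.13 to 6.32 in rsEpiSC. It fell in EpiSC (-1.77 ± 0.43, adjusted p = 0.0121) and ESC (-1.73 ± 0.43, adjusted p = 0.0148) against epiblast E5.75, and the calls were lost without EpiSC replicate 1 or epiblast E5.75 replicate 1 (adjusted p = 0.0541 to 0.0971) and without ESC replicate 1 or epiblast E5.75 replicate 1 (adjusted p = 0.062 to 0.0673). Ndn, which codes for the growth suppressor necdin, was at 6.34 to 7.21 in rsEpiSC and at 4.57 to 5.80 elsewhere. It rose in rsEpiSC E5.75 against ESC (1.77 ± 0.41, adjusted p = 0.0158) and did not pass against EpiSC (1.47 ± 0.41, adjusted p = 0.0769). The rise was lost without ESC replicate 2 or rsEpiSC E5.75 replicate 2 (adjusted p = 0.128 to 0.181). Peg12 rose in rsEpiSC E5.75 against epiblast E5.75 (1.20 ± 0.37, adjusted p = 0.0382), a call that held in 9 of 19 alternatives and was lost without either rsEpiSC E5.75 array or either epiblast E5.75 array (adjusted p = 0.0678 to 0.239). Mkrn3 and the ubiquitin ligase gene Ube3a, which is imprinted in neurons, passed nowhere, with Ube3a at 8.10 to 9.08 on all arrays.

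Nnat, which codes for neuronatin, a small membrane protein of developing brain and endocrine cells, depended on the probe set. The probe set with the higher mean had log2 signals of 9.58 and 7.04 in rsEpiSC E6.5, 3.78 and 3.47 in rsEpiSC E5.75, 3.81 and 4.84 in EpiSC, 5.06 and 4.74 in ESC, 8.71 and 9.23 in epiblast E6.5, and 9.70 and 8.66 in epiblast E5.75. On it tissue and rsEpiSC E6.5 were high and all other lines were low. Nnat rose in rsEpiSC E6.5 against rsEpiSC E5.75 (4.69 ± 0.66, adjusted p = 0.0209) and fell against epiblast E5.75 in rsEpiSC E5.75 (-5.55 ± 0.66, adjusted p = 0.00028), EpiSC (-4.85 ± 0.66, adjusted p = 0.000457) and ESC (-4.28 ± 0.66, adjusted p = 0.00101). A second probe set annotated with Nnat alone was at 9.38 and 8.22 in rsEpiSC E6.5, 5.85 and 5.89 in rsEpiSC E5.75, 5.94 and 6.05 in EpiSC, 5.51 and 6.98 in ESC, 5.17 and 4.82 in epiblast E6.5, and 5.12 and 6.10 in epiblast E5.75. Both probe sets thus gave high signals in rsEpiSC E6.5, and they disagreed on tissue.

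In a fit over every probe set, rsEpiSC E6.5 against epiblast E6.5 was 3.80 ± 0.54 (adjusted p = 0.00579) on the second Nnat probe set and -0.66 ± 0.72 (adjusted p = 0.611) on the first. The 3 falls against epiblast E5.75 were on the second probe set differences of 0.26 to 0.63 that did not pass (adjusted p = 0.446 to 0.771). The mean of both probe sets still fell in all 3. Nnat lies within Blcap, which is transcribed from the other strand. Of the 20 probe sets nearest in number, 20 belong to genes on the strand of Nnat for the second probe set and 2 for the first. Which transcript the first probe set measured was not tested. Blcap itself rose against epiblast E5.75 in rsEpiSC E5.75 (0.98 ± 0.28, adjusted p = 0.0277) and EpiSC (1.01 ± 0.28, adjusted p = 0.0221), with epiblast E5.75 replicate 1 at 3.996. The calls were lost without either rsEpiSC E5.75 array or epiblast E5.75 replicate 1 (adjusted p = 0.0814 to 0.171) and without either EpiSC array or epiblast E5.75 replicate 1 (adjusted p = 0.0833 to 0.141).

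The 16 imprinted genes that passed in no comparison between groups had group means that spanned 0.32 to 1.47 each. They were Ascl2, Kcnq1, Kcnq1ot1, Cdkn1c, Osbpl5, Airn, Mkrn3, Ube3a, Calcr, Copg2, Klf14, Gnas, Ddc, Nap1l5, Inpp5f and Rasgrf1. Osbpl5 and Inpp5f, a phosphatase gene, passed in the F test over the 6 groups. Nap1l5, of the nucleosome assembly protein family, was at 3.83 to 5.75, with the highest value on EpiSC replicate 1. Airn, Ddc and Rasgrf1, which codes for a Ras exchange factor, were below the median signal of all genes on every array, so a change in them may not have been detectable. Gnas, which codes for the stimulatory G protein alpha subunit and for several transcripts with different imprints, was read from a single probe set at 4.61 to 5.71.

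Stage of derivation and stage of the tissue were compared next. In rsEpiSC E6.5 against rsEpiSC E5.75, Nnat was the only imprinted gene of 41 that passed, with 0.0857% of all genes called (0.0631% higher). It did not pass without either rsEpiSC E5.75 array or rsEpiSC E6.5 replicate 1 (adjusted p = 0.121 to 0.222), nor without either epiblast E6.5 array (adjusted p = 0.0547 each), which only lend their spread to the fit. In epiblast E6.5 against epiblast E5.75, 0 of 41 passed in limma, with 0.0225% of all genes called and 4 of 41 (9.76%) at an unadjusted p under 0.05, as were 2819 of all 22180 genes (12.7%). These 4 were Osbpl5 (-1.22 ± 0.35, adjusted p = 0.211), Grb10 (0.81 ± 0.26, adjusted p = 0.236), Peg3 (1.00 ± 0.40, adjusted p = 0.336) and Casd1 (0.85 ± 0.37, adjusted p = 0.378). An interaction, the stage effect in rsEpiSC lines less the stage effect in epiblast tissue, was tested after the data were seen and passed in 0 of 41 imprinted genes and in 0.00902% of all genes. For Nnat it was 4.89 ± 0.93 (adjusted p = 0.135).

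The rsEpiSC lines of the 2 stages also differed in sex-linked genes. Xist, the RNA of the inactive X chromosome, was at 3.17 and 2.65 in rsEpiSC E6.5 against 8.23 and 10.19 in rsEpiSC E5.75. The Y-linked gene Eif2s3y was at 7.64 and 7.36 in rsEpiSC E6.5 against 5.17 and 2.33 in rsEpiSC E5.75. The labels give no sex, so stage and this difference cannot be told apart for Nnat or any other gene of these lines. The other groups differed in these genes too. Xist was at 9.84 and 8.72 in EpiSC, 5.96 and 5.64 in ESC, and 8.41 to 9.05 in tissue. Eif2s3y was at 1.81 and 2.86 in EpiSC, 2.72 and 8.19 in ESC, and 8.10 to 8.55 in tissue. Other comparisons between lines, and those of lines with tissue, can thus carry such a difference, and its part in the calls was not tested.

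The paternally expressed genes differed mostly in 1 direction between the ESC arrays. Of 20 such genes, 16 were higher on replicate 1, with a median difference of 0.36, counting Usp29, which was equal to 2 decimals. Of the maternally expressed genes 8 of 17 were higher there (median -0.02), and of all genes 11453 of 22180 (median 0.02). Peg10 was at 9.92 on replicate 1 and 7.66 on replicate 2, Mest at 8.25 and 6.44, and Peg3 at 7.58 and 5.99. Slc38a4 went the other way, at 8.72 on replicate 1 and 10.59 on replicate 2. Differences over 1 in either direction were seen in 20.0% of the paternally expressed genes, 5.88% of the maternally expressed genes and 7.78% of all genes. In the other 5 groups 5 to 10 of the 20 paternally expressed genes were higher on replicate 1. The fewest were in epiblast E6.5, where 5 were higher and the median difference was -0.30, against 0.002 for all genes. A split mostly in 1 direction was thus not particular to ESC. Differences over 1 were as frequent among the paternally expressed genes in EpiSC and epiblast E5.75 as in ESC (20.0% each). With 1 array on each side there is no test of this.

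**Figure D4:**
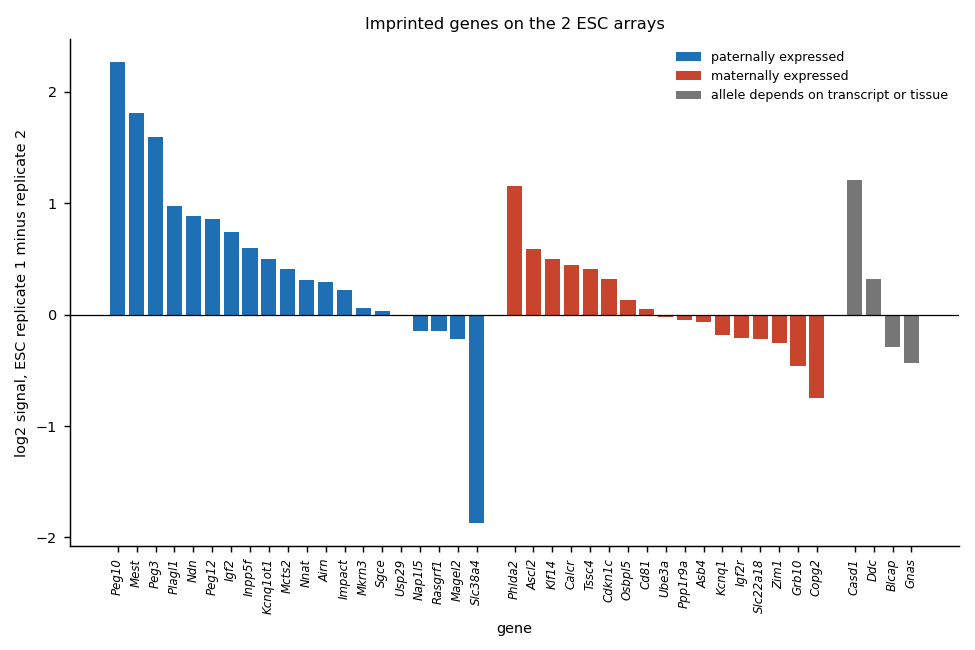
Log2 signal on ESC replicate 1 minus that on ESC replicate 2 for each of the 41 imprinted genes, with paternally expressed genes at the left, maternally expressed genes in the middle and the other 4 at the right, sorted within each class. Bars of Peg10, Mest, Peg3, Phlda2 and Casd1 reach above 1 and that of Slc38a4 below -1.

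Other genes differed between the ESC arrays too. The Y-linked gene Eif2s3y was at 2.72 on replicate 1 and 8.19 on replicate 2, so the 2 arrays may not share a line or a sex, which the labels do not give. The methyltransferase gene Dnmt3b was at 8.26 and 6.81, its cofactor gene Dnmt3l at 9.03 and 7.47, the neuronal gene Tubb3 at 6.98 and 3.52, and the mesenchymal gene Vim at 8.56 and 6.44. Their part in the differences of the imprinted genes was not tested. Without ESC replicate 1, 6 of 41 imprinted genes passed in EpiSC against ESC and 13 in rsEpiSC E5.75 against ESC, with 1388 and 2065 of all genes. Without ESC replicate 2 the counts were 4 and 9, with 1118 and 1686 of all genes, against 1396 and 2282 with both arrays. Calls were thus fewer among all genes too. The imprinted calls lost without ESC replicate 2 were those of Casd1, Phlda2 and Sgce in the first comparison and of Casd1, Igf2, Impact, Ndn, Tssc4 and Usp29 in the second.

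Some of the fibroblast markers moved with several of these results. The summed linear signal of 12 markers was 1045 to 1419 in rsEpiSC E6.5, 1821 to 2107 in rsEpiSC E5.75, 2877 to 4227 in EpiSC, 440.4 to 693.4 in ESC, 455.5 to 458.3 in epiblast E6.5 and 553.8 to 560.7 in epiblast E5.75. Of the 12 markers 5 rose and 0 fell in EpiSC against ESC and in rsEpiSC E5.75 against ESC. Against tissue 2 rose in rsEpiSC E6.5, 6 in rsEpiSC E5.75 and 6 in EpiSC. In both comparisons against ESC the 5 were Col1a2, Mmp2, Vim, Tagln and Acta2. Tagln, of smooth muscle and stromal cells, was at 7.06 and 7.61 in rsEpiSC E5.75 and 8.94 and 9.44 in EpiSC, against 4.91 and 4.73 in ESC. Col1a2, a collagen gene, was at 7.70 and 7.88 in rsEpiSC E5.75 and 6.29 and 9.02 in EpiSC, against 3.21 and 3.51 in ESC. Vim was at 9.55 and 9.83 in rsEpiSC E5.75 and 10.54 and 11.02 in EpiSC, against 8.56 and 6.44 in ESC. It was the highest of the 12 markers on every array and so weighed most in the sums. The fibroblast matrix genes Lum (2.18 to 3.49) and Postn (2.40 to 4.17) were below the median signal of all genes on every array. Col3a1 ran only from 3.99 to 5.13 over all arrays, and Pdgfrb from 3.90 to 4.87. In ESC against epiblast E5.75, 0 of the 12 markers rose and 1 fell. Cd81, Igf2r, Peg10 and Phlda2 rose there, as they did in EpiSC and rsEpiSC E5.75. Grb10, Peg3 and Sgce did not pass in ESC against tissue, and Sgce there was 1.02 ± 0.46, adjusted p = 0.131. The part of feeder RNA in these differences was not tested. In bulk RNA, a different share of a cell type and a different level per cell cannot be told apart.

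Markers of neurons, trophoblast and visceral endoderm were read in the same way. Of 6 neural markers measured, 4 rose and 0 fell in rsEpiSC E5.75 against ESC, and 2 rose and 1 fell against EpiSC. Their summed linear signal was 817.2 to 1074 in rsEpiSC E6.5 and 594.2 to 838.6 in rsEpiSC E5.75, the lines in which Mest and Ndn were highest, against 112.4 to 244.4 on all other arrays. Sox1 (7.68 to 8.66) and Tubb3 (7.87 to 9.595) weighed most in the rsEpiSC sums. Dcx (2.45 to 4.01) and Neurod1 (3.20 to 4.53) were below the median signal of all genes on every array, and Neurod1 was lower in rsEpiSC than in EpiSC. Of 10 trophoblast markers, 1 rose and 1 fell in EpiSC against epiblast E5.75, and their sum was 211.7 to 254.0 in rsEpiSC E6.5, 218.8 to 262.6 in rsEpiSC E5.75, 590.1 to 1106 in EpiSC, 314.3 to 582.5 in ESC, 734.9 to 735.9 in epiblast E6.5 and 443.3 to 471.6 in epiblast E5.75. Single markers weighed most in these sums. The highest of the 10 was Krt8 in EpiSC (8.63 and 9.80) and Eomes in epiblast E6.5 (8.88 and 8.97). Cdx2 (3.49 to 4.38) and Tpbpa (2.34 to 3.64) were below the median signal of all genes on every array. Of 11 visceral endoderm markers, 1 was called in ESC against epiblast E5.75 and 1 in rsEpiSC E6.5 against epiblast E6.5, and 0 in the other comparisons. The part of these cell types in the results was not tested.

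Genes that set or keep imprints were counted from a list of 17, all measured. In EpiSC against ESC 0 rose and 5 fell. These were Zfp57, whose product guards methylated imprints (-2.50 ± 0.30, adjusted p = 0.000349), Dppa3, which protects them in the zygote (-4.13 ± 0.37), Dnmt3l (-4.51 ± 0.48) and the demethylase genes Tet1 (-1.33 ± 0.30) and Tet2 (-3.20 ± 0.37). In rsEpiSC E5.75 against EpiSC the maintenance genes Dnmt1 (0.88 ± 0.19) and Uhrf1 (1.22 ± 0.28) rose and 0 fell. In rsEpiSC E5.75 against ESC 2 rose and 5 fell. Against tissue 2 rose and 3 fell in rsEpiSC E6.5, 3 and 5 in rsEpiSC E5.75, 1 and 5 in EpiSC, and 4 and 5 in ESC. Of all genes 6.29% were called in EpiSC against ESC, 3.87% in rsEpiSC E5.75 against EpiSC and 10.3% in rsEpiSC E5.75 against ESC. Against tissue the shares of all genes were 12.5% in rsEpiSC E6.5, 21.5% in rsEpiSC E5.75, 24% in EpiSC and 21.5% in ESC. The log2 signal of Zfp57 was 9.00 and 9.24 in ESC, and 5.69 to 6.88 on the 10 other arrays.

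A further 17 imprinted genes, listed from the same kind of knowledge, were counted in the same way. In EpiSC against ESC 1 rose and 3 fell, in rsEpiSC E5.75 against EpiSC 0 and 1, and in rsEpiSC E5.75 against ESC 1 and 2. Against tissue 2 rose and 2 fell in rsEpiSC E6.5, 3 and 2 in rsEpiSC E5.75, 3 and 3 in EpiSC, and 3 and 2 in ESC. Of all genes 6.29%, 3.87% and 10.3% were called in the first 3 comparisons. Against tissue the shares of all genes were 12.5% in rsEpiSC E6.5, 21.5% in rsEpiSC E5.75, 24% in EpiSC and 21.5% in ESC. Gab1, a signalling adaptor imprinted in the placenta, fell in EpiSC (-1.99 ± 0.23) and rsEpiSC E5.75 (-2.34 ± 0.23) against ESC. Cobl, an actin nucleator gene beside Grb10, fell in both as well (-3.11 ± 0.36 in EpiSC and -3.16 ± 0.36 in rsEpiSC E5.75), while Grb10 rose there. Dcn, which codes for the matrix protein decorin, fell against tissue in rsEpiSC E6.5 (-2.03 ± 0.30), rsEpiSC E5.75 (-2.14 ± 0.30), EpiSC (-1.71 ± 0.30) and ESC (-2.51 ± 0.30). Whether the 2 sets differ was not tested.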

How the data were processed

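RNA of 12 samples was hybridised to 1-colour arrays, 2 per group. The deposited values are log2 signals for 41345 probe sets, made with RMA in the oligo package per the submitters' processing notes, which give no version. The labels' protocol names a human array, but the probe set numbers match a mouse table, which was used. Of the probe sets 23521 carry 1 gene symbol, 1814 several and 16010 none, which left 22180 genes, each read from its probe set with the highest mean. No scanner files were used, so background and saturation could not be judged; signals ran from 0.33 to 13.59, and arrays correlated at 0.872 to 0.988 (replicates 0.943 to 0.988).

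Group means were compared in limma 3.58.1 (R 4.3.3) with lmFit on all 6 groups and eBayes with a variance trend (6 residual degrees of freedom), and p-values were adjusted by the Benjamini-Hochberg method over all genes. The fit was tested on simulated data. The members and lists (imprint control factors, further imprinted genes, markers of fibroblasts, neurons, trophoblast, visceral endoderm and pluripotency) were chosen with earlier results of these data known. Values on every array are given for the 10 members with the widest range of group means and for well-known members; other genes are named where they passed or to account for every member. All tests were 2-sided. Alternatives were another normalization, a filter on low signal, other uses of probe sets, no variance trend, the replicate number as a block, each array left out, and only the arrays compared. Promoter sequences come from RefSeq (GRCm38.p6).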

Additional observations from a re-analysis of the deposited data

How the results depend on the processing

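Of 69 calls of single imprinted genes, 29 were kept in every alternative, 40 were lost in at least 1, and 0 changed direction. With all probe sets tested, which adjusts over more features, the counts of imprinted genes were 3 in EpiSC against ESC, 1 in rsEpiSC E5.75 against EpiSC, 0 in rsEpiSC E6.5 against rsEpiSC E5.75 and 16 in the F test, in place of 6, 2, 1 and 26. Of all 41345 probe sets 1100, 577, 14 and 7472 were called there, where 1396, 858, 19 and 7100 of all 22180 genes were in the main fit. The share called was thus lower in each of these tests, as it was for the imprinted genes. With only the 4 arrays compared in the fit, which leaves fewer degrees of freedom, the counts of imprinted genes were 2 in EpiSC against ESC, 4 in rsEpiSC E5.75 against EpiSC, 4 in rsEpiSC E6.5 against rsEpiSC E5.75 and, with epiblast E6.5 as the comparison for rsEpiSC E6.5, 11, in place of 6, 2, 1 and 6. The counts over all genes moved the same way, to 558, 1013, 157 and 3655 from 1396, 858, 19 and 2772. Quantile normalization, the filter on low signal (13331 genes, 35 of the 41), the mean of probe sets and no variance trend kept each count within 1.5 times.

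With 1 array left out in turn, the array left alone in its group is assumed to vary like the others. The number of all genes called also changed with the array left out, so these counts are not particular to imprinted genes. The counts then ran from 4 to 7 in EpiSC against ESC, 1 to 4 in rsEpiSC E5.75 against EpiSC, 7 to 15 in rsEpiSC E5.75 against ESC, 0 to 1 in rsEpiSC E6.5 against rsEpiSC E5.75, 6 to 11 in ESC, 9 to 15 in EpiSC and 8 to 17 in rsEpiSC E5.75 against epiblast E5.75, 2 to 7 in rsEpiSC E6.5 against epiblast E6.5 and 16 to 25 in the F test. Epiblast E6.5 against E5.75 stayed at 0. The counts that moved by over 1.5 times came without rsEpiSC E6.5 replicate 1 (2 against tissue, 17 in the F test) or 2 (3 and 16), rsEpiSC E5.75 replicate 1 (1 against EpiSC, 8 against tissue) or 2 (7 against ESC, 8 against tissue), EpiSC replicate 1 (9 against tissue, 1 in rsEpiSC E5.75 against EpiSC), ESC replicate 1 (4 in rsEpiSC E5.75 against EpiSC) or 2 (9 in rsEpiSC E5.75 against ESC) and epiblast E5.75 replicate 1 (6 in ESC and 9 in rsEpiSC E5.75). The count of rsEpiSC E6.5 against rsEpiSC E5.75 was 0 without either rsEpiSC E5.75 array, rsEpiSC E6.5 replicate 1 or either epiblast E6.5 array.

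Deviations from the group mean, matched by replicate number, correlated at r from -0.26 to 0.06 over 15 pairs of groups, across genes. The r of -0.26 was between ESC and EpiSC. Such correlations cannot show whether the numbers pair the samples. With the replicate block, the counts were 6, 2, 13, 1, 0, 10, 15, 14 and 6 for EpiSC over ESC, for rsEpiSC E5.75 over EpiSC and over ESC, for the stage comparisons of rsEpiSC and epiblast, ESC, EpiSC and rsEpiSC E5.75 against epiblast E5.75, and rsEpiSC E6.5 against epiblast E6.5, and 20 in the F test. With 2 arrays a group, a single array often decides a call, and signals near the median of all genes limit what can be detected.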

Other observations

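H19 and Snrpn, central genes of their clusters, were measured only on probe sets that also carry another symbol, so these values belong to neither gene alone. The probe set of H19 and Mir675 had log2 signals of 5.91 and 6.07 in rsEpiSC E6.5, 7.21 and 4.70 in rsEpiSC E5.75, 3.71 and 3.81 in EpiSC, 7.53 and 5.22 in ESC, 5.48 and 5.35 in epiblast E6.5, and 5.54 and 5.52 in epiblast E5.75. The EpiSC arrays were the lowest, and the replicates of rsEpiSC E5.75 and of ESC each differed by over 2. Of the probe sets of Snrpn and Snurf, 1 was at 8.84 to 11.07 and the other at 4.07 to 5.98 over all arrays. A probe set of Gnas and its antisense gene was at 5.45 and 5.25 in rsEpiSC E6.5, 4.46 and 4.78 in rsEpiSC E5.75, 4.19 and 4.27 in EpiSC, 4.43 and 4.10 in ESC, 4.67 and 5.12 in epiblast E6.5, and 4.91 and 5.01 in epiblast E5.75.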
